A study of Mus musculus with 16 samples.

Results

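Potassium channel genes were taken as the protein-coding rows of both expression tables whose symbol begins with Kcn. There were 94 of them among the 38933 genes listed in bone and 65 among the 21011 listed in muscle, and all 65 were in both lists. The other 29 were listed in bone alone. Each tissue had 4 libraries from vehicle-treated (VEH) and 4 from BAY-treated (BAY) mice, all from female C57BL/6 mice that were 18 months old when treatment began. BAY is BAY2416964, a small-molecule antagonist of the aryl hydrocarbon receptor (AhR), and it was given by oral gavage as 30 mg/kg doses, 5 days in each of 8 weeks, while VEH mice received the ethanol, Solutol and water carrier. Muscle was tibialis anterior, and bone was the cortical shaft left after marrow stromal cells had been isolated and the shaft had been digested with collagenase. Nothing in the labels ties a muscle library to a bone library, and p-values measure the spread between these libraries.

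Potassium channels let K+ leave or enter a cell and so set its resting potential and end its action potentials. In skeletal muscle fibres, voltage-gated channels repolarize the membrane, inward rectifiers hold the resting potential and carry K+ back into the fibre, channels gated by ATP link excitability to energy supply, and calcium-activated channels respond to the calcium that drives contraction. Two-pore-domain channels give background leak, and auxiliary subunits form no pore but alter the assembly and gating of those that do.

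The trait that joins the pore-forming members is the selectivity filter, a short stretch of the pore that strips water from K+ and passes it in single file. It is shown for 7 members with ample RNA in muscle, because the pore they share is what makes a gene of this group a channel. The canonical GENCODE transcript of each member was translated and searched for 5 codons in a row that read threonine or serine, then valine, isoleucine, leucine, methionine or threonine, then glycine, then tyrosine, phenylalanine or leucine, then glycine. All 40 voltage-gated, 15 inward rectifier and 8 calcium- and sodium-activated members held the pattern once, 13 of the 14 two-pore-domain members held it in 2 places and the other in 1, and the 17 auxiliary members lacked it. The coding strand below runs 5′ to 3′, with the 5 filter codons (15 bases) in capitals and 5 codons on each side, from the GRCm39 genome.
Kcnc1: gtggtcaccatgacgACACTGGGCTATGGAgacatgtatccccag
Kcnc4: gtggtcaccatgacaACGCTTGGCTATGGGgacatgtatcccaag
Kcna7: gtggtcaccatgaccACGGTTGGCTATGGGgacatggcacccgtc
Kcna5: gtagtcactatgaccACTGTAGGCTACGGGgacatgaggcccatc
Kcnj11: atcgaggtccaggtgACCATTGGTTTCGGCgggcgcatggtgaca
Kcnj2: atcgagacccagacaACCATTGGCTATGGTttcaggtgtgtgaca
Kcnma1: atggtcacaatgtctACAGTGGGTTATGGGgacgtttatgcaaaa

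These stretches lie in coding exons, at chr7:46077382-46077426 (plus strand, exon 2 of 4) for Kcnc1, chr3:107355100-107355144 (minus, exon 2 of 4) for Kcnc4 and chr7:45058870-45058914 (plus, exon 2 of 2) for Kcna7. Those of the remaining genes are at chr6:126510693-126510737 (minus, exon 1 of 1) for Kcna5, chr7:45748905-45748949 (minus, exon 1 of 1) for Kcnj11, chr11:110963018-110963062 (plus, exon 2 of 2) for Kcnj2 and chr14:23578466-23578510 (minus, exon 8 of 28) for Kcnma1. Kcnc1 and Kcnc4 were identical at 40 of the 45 bases, and Kcnc1 and Kcnj11 at 14. Across whole canonical transcripts Kcna5 and Kcna6 shared 79 words of 50 bases, and Kcnj2 and Kcnj12 shared 2. Recovered read numbers of some members, Kcna6, Kcnn2, Kcnma1, Kcnh7 and Kcnj13 among them, were fractional, as happens where reads are split between genes. Read numbers as large as those of Kcnc1 were not checked in this way. Exons of many members are overlapped by models on the other strand, whose reads cannot be told apart where counting ignores strand. Among these members are Kcnj2, Kcnma1, Kcnn1, Kcnn2, Kcng4, Kcnab1, Kcna2, Kcnh7, Kcnj13, Kcnrg, Kcnj6, Kcnj10 and Kcnk3.

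Read depth on genes was 6131944 to 9262340 in the muscle libraries and 930307 to 6951895 in the bone libraries, as recovered from the steps between low values in the tables. Summed muscle fibre markers (8 of 8 listed, among them Acta1, Ckm and Myh4) were 86495 to 114314 CPM (counts scaled to a common library total) in VEH muscle and 92865 to 156473 in BAY muscle. VEH muscle replicate 3 stood apart, with summed adipocyte markers (4 of 4 listed) at 80.5 CPM against 0.963 to 5.01 in the other 7 libraries, and nerve and Schwann cell markers (6 of 6) at 56.4 against 19.3 to 34.7. In bone the osteoblast and osteocyte markers (6 of 6) ran from 917 to 20713 CPM and the muscle fibre markers from 29.1 to 24924 CPM, and in BAY replicates 1 and 2 the muscle markers exceeded the bone markers.

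In muscle, RNA of potassium channel genes was concentrated in a few members. An average of 1 CPM or more was reached by 25 of 65, and 26 had at least 3 reads in each of the 8 libraries. The 8 members at 30 CPM or more held 80.7% of all Kcn CPM, and the 40 members under 1 CPM held 2.15%. By role, voltage-gated members held 63.1%, inward rectifiers 25.1%, calcium- and sodium-activated members 10.1%, auxiliary subunits 0.994% and two-pore-domain members 0.716%.

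Between genes, levels were compared per kilobase of exon, with the exons of all annotated transcripts merged. This length was 10167 bases for Kcnc1 and 3677 for Kcnj11, against 4554 and 3142 in their canonical transcripts. The order of Kcnc1 and Kcnj11 therefore depends on the length used. Kcnj11, the pore of the ATP-gated channel, was first at a mean of 21.3 CPM per kb with a range of 18.8 to 23.7 over the 8 libraries. Kcnc1, a fast delayed rectifier, came next at 16.6 (11.4 to 22.6), then Kcnc4 of the same subfamily at 14.7 (10.9 to 18.0), Kcna7 at 11.2 (9.0 to 14.5) and Kcnj2, the main inward rectifier of many excitable cells, at 10.6 (7.05 to 20.1). The ranges of each neighbouring pair overlapped, and the lowest Kcnj11 library was above the highest Kcnc4 and Kcna7 libraries. Kcnj12, an inward rectifier related to Kcnj2, was at 5.57 (4.78 to 6.79).

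Below these lay Kcng4, a subunit that forms channels only together with other voltage-gated subunits, at 3.27 CPM per kb, Kcnq5 at 2.99, Kcna5 at 2.93, and Kcnma1, the large-conductance calcium-activated channel, at 2.43. Kcnj8, the other pore subunit of ATP-gated channels, was at 2.09 and the small-conductance calcium-activated Kcnn1 at 1.83. Kcnn2 and Kcnn3, which belong with Kcnn1, were at 1.09 and 0.675. The merged exons of Kcnn2 span 11291 bases against 1725 in its canonical transcript, so its level per kilobase also depends on the length used. For scale, the 95th percentile of the 39 olfactory receptor (Olfr) genes listed in muscle was 0.398 to 0.848 CPM per kb, and 15 of the 65 members were above it in all 8 libraries. Kcnn2 was above it in 7 libraries and Kcnn3 in 3. Genes listed in muscle had at least 5 reads over the 8 libraries together, so these 39 Olfr genes were ones with some reads. Their percentile is thus not a level of silent genes.

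**Figure D1:**
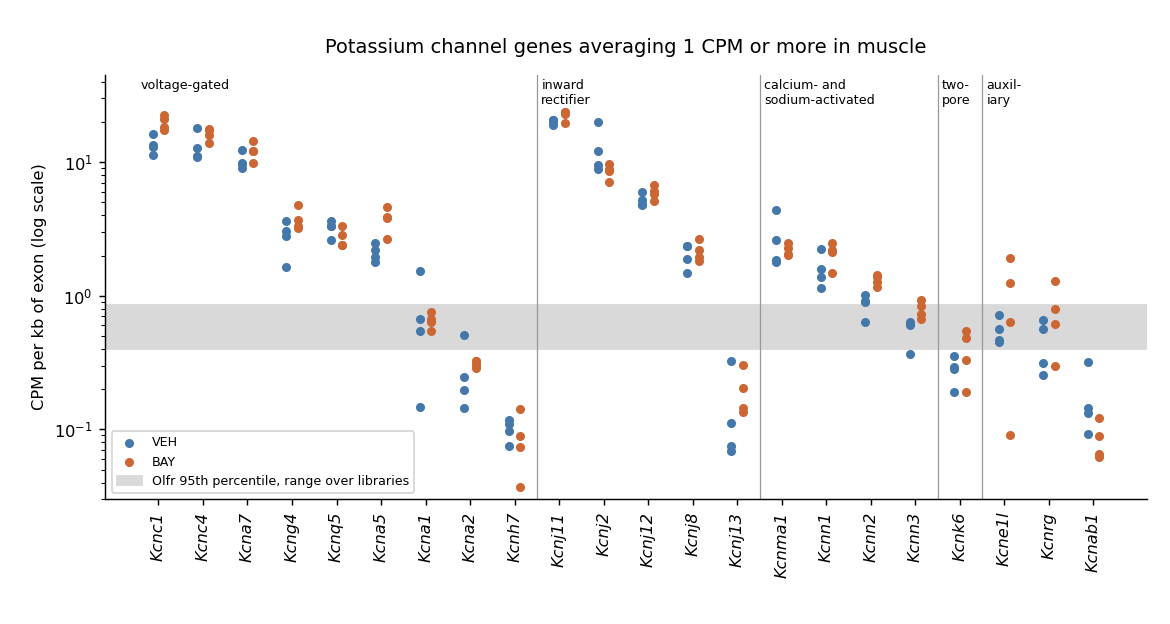
Level in muscle of 22 of the 25 potassium channel genes averaging 1 CPM or more, in CPM per kb of exon on a log axis, grouped by family. Each point is a library (4 VEH, 4 BAY), and the grey band spans the 95th percentile of the 39 Olfr genes with reads in muscle over the 8 libraries (0.398 to 0.848). Kcnj11 and Kcnc1 stand highest, and Kcnh7, Kcnab1 and Kcnj13 lie below the band.

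The remaining members over 1 CPM were close to that limit. The auxiliary members were Kcne1l at 1.18 CPM, Kcnrg at 1.65 and Kcnab1 at 1.61, and the two-pore-domain member was Kcnk6 at 1.42. Kcna1 and Kcna2, which act in axons as well as in muscle, were at 3.29 and 3.96 CPM and were highest in VEH replicate 3, at 7.34 and 6.91, where the nerve and Schwann cell markers were also highest. The part of those cells in the values was not tested. Kcnh7 was at 1.44 and Kcnj13 at 1.07 CPM. Of the 40 members below 1 CPM, 25 were listed at 0 in at least 1 library, and at these depths 1 read was worth 0.108 to 0.163 CPM.

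The comparison of BAY with VEH muscle asked whether AhR antagonism shifted channel RNA. At an unadjusted P under 0.05 (limma), 6 of 65 members were higher in BAY against 6.71% of all 21011 genes, and 2 were lower against 3.07% of all genes. With the added requirement of a 2-fold difference, 3 members were called (Kcnk5, Kcnj10 and Kcnj6) against 2.43% of all genes. Groups did not overlap, with BAY higher, for 5 members (Kcnc1, Kcna5, Kcnn2, Kcnn3 and Kcnt1) against 4.2% of all genes, and with BAY lower for 0 members against 1.53%. Kcnt1 had 2, 1, 1 and 2 reads in VEH and 7, 3, 4 and 2 in BAY, so the nearest libraries tied at 2 reads and were parted only by scaling to depth (0.239 and 0.280 CPM). No member had an adjusted P under 0.05 (Benjamini-Hochberg over all genes), and the smallest was 0.275. In whole bulk tissue, fewer cells of a type and less RNA per cell cannot be told apart.

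Kcnc1 (ENSMUSG00000058975, chr7:46045921-46088129, plus strand) had the smallest P of the members and was also the one with most CPM. It was at 136, 164, 116 and 132 CPM in VEH replicates 1 to 4 and at 185, 213, 230 and 178 CPM in BAY replicates 1 to 4. Every BAY library was above every VEH library. Means were 137 ± 20.0 and 202 ± 24.3 CPM (SD, n = 4 each), a 1.47-fold difference with a log2 difference of 0.56 (SE 0.14; limma P = 0.0012, adjusted P = 0.275; exact permutation P = 0.0286, two-sided and the smallest that 4 against 4 libraries allow). At 1072 to 1782 reads per library it was well counted.

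Kcna5 (ENSMUSG00000045534, chr6:126509514-126512376, minus strand) is a voltage-gated channel best known from heart and vascular smooth muscle. It was at 5.12, 7.11, 5.61 and 6.32 CPM in VEH and at 11.1, 7.66, 10.97 and 13.2 CPM in BAY. The groups did not overlap, although BAY replicate 2 was close to VEH replicate 2. The log2 difference was 0.81 (SE 0.20; limma P = 0.0013, adjusted P = 0.275; exact permutation P = 0.0286), or 1.76-fold, on 44 to 94 reads per library. Summed smooth muscle and pericyte markers (4 of 4 listed) were 183 to 290 CPM in VEH and 210 to 276 in BAY, and endothelial markers (4 of 4) were 160 to 182 in VEH and 169 to 206 in BAY; their part in the Kcna5 difference was not tested.

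Of the small-conductance calcium-activated channels, Kcnn2 and Kcnn3 were higher in BAY. Kcnn2 was at 7.14, 11.5, 10.1 and 10.4 CPM in VEH and at 14.3, 13.2, 16.1 and 15.7 CPM in BAY, with a log2 difference of 0.62 (SE 0.17; limma P = 0.0030, adjusted P = 0.305; exact permutation P = 0.0286). Kcnn3 was at 3.84, 6.69, 6.48 and 6.32 CPM in VEH and at 7.02, 7.66, 8.77 and 9.68 CPM in BAY, with a log2 difference of 0.53 (SE 0.22; limma P = 0.030, adjusted P = 0.462; exact permutation P = 0.0286). Neither gene overlapped between groups, but VEH replicate 1 was low in both, and without it Kcnn3 was at a log2 difference of 0.34 and missed the threshold. It also missed it without BAY replicate 3 (0.50), without BAY replicate 4 (0.45) and without the variance trend. The third member, Kcnn1, had the same sign but overlapped between groups, at 6.52 to 12.6 CPM in VEH and 8.32 to 13.9 CPM in BAY (log2 difference 0.40, SE 0.22, adjusted P = 0.582).

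Kcnj2 was lower in BAY. It was at 52.0, 65.8, 110 and 48.9 CPM in VEH and at 47.1, 53.0, 48.2 and 38.6 CPM in BAY, so that the groups overlapped and VEH replicate 3 stood far above the other 7 libraries. The log2 difference was −0.50 (SE 0.21; limma P = 0.036, adjusted P = 0.478; exact permutation P = 0.114), and without VEH replicate 3 it was −0.25 with an unadjusted P of 0.102. It also missed the threshold without VEH replicate 2 or BAY replicates 1, 3 or 4 and without the variance trend. Kcnma1 was also highest in that library, at 74.4 CPM against 30.6 to 44.0 in the other 7, and its log2 difference of −0.17 (adjusted P = 0.831) became 0.11 without it. This is the library with the high adipocyte and nerve markers. It was also the highest for osteoblast and osteocyte markers (3 of 6 listed, 87.6 CPM against 12.6 to 25.5 in the other 7), macrophage markers (4 of 4, 9.64 against 2.15 to 5.33) and smooth muscle and pericyte markers (290 against 183 to 276). The part of these cells in both values was not tested.

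**Figure D2:**
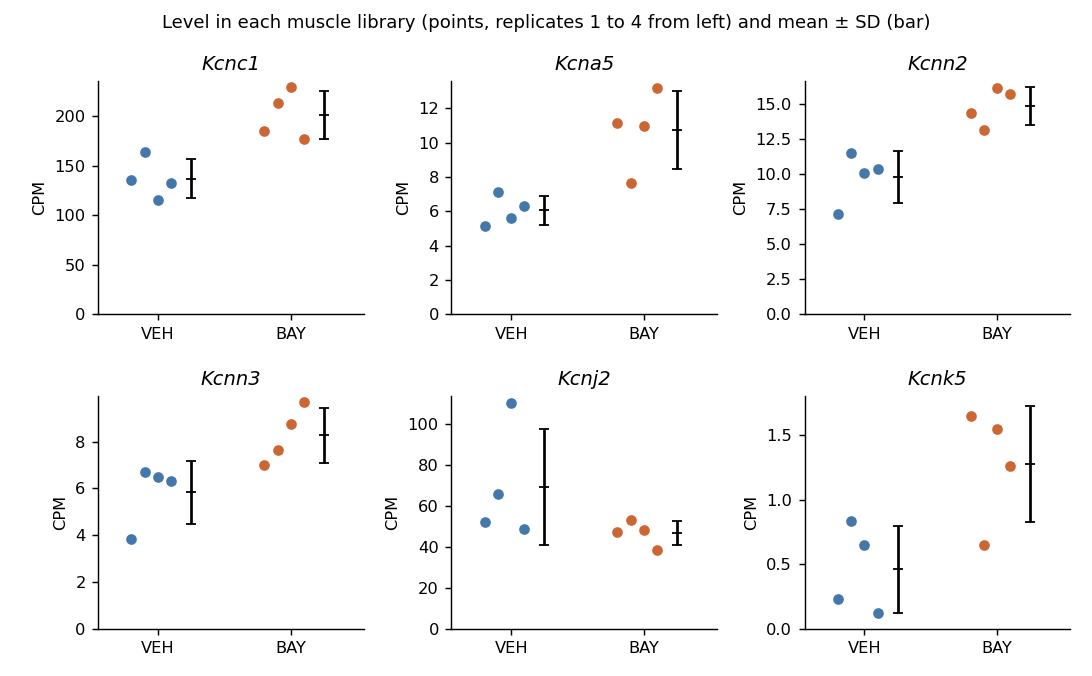
CPM of 6 potassium channel genes in each muscle library, with the mean and SD of each group of 4 as a bar, each axis starting at 0. Kcnc1, Kcna5, Kcnn2 and Kcnn3 do not overlap between VEH and BAY. Kcnj2 overlaps, with 1 VEH library at 110 CPM, and Kcnk5 lies under 2 CPM throughout.

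The 3 members called at a 2-fold difference rested on few reads. Kcnk5, an alkaline-activated background channel, had 2, 6, 6 and 1 reads in VEH and 12, 4, 12 and 9 in BAY, with a log2 difference of 1.78 (SE 0.75; limma P = 0.032, adjusted P = 0.470; exact permutation P = 0.0571), and it missed the threshold in 6 of 15 alternatives. Kcnj10, an inward rectifier best known from glia, had 1, 4, 1 and 1 reads in VEH and 0, 0, 2 and 0 in BAY. Kcnj6, an inward rectifier gated by G proteins, had 1, 0, 2 and 0 reads in VEH and 4, 2, 2 and 1 in BAY. The last 2 were at or near the floor of 3 reads, so no fold is given. With an offset of 1 CPM, 0 of the 65 members were called, beside 0.247% of all genes.

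Among other members that missed the threshold, Kcnc4 was at 54.8 to 90.8 CPM in VEH and 69.96 to 89.7 in BAY (log2 difference 0.33, SE 0.16, adjusted P = 0.539). Kcng4 differed by 0.46 (SE 0.22, adjusted P = 0.524) on the log2 scale, and by 0.23 without VEH replicate 3. Kcnj11 varied little, at 69.2 to 76.7 CPM in VEH and 71.7 to 87.2 in BAY, with a log2 difference of 0.15 (SE 0.11, adjusted P = 0.670). Kcna7 was at 0.25 (SE 0.14, adjusted P = 0.601), Kcnj12 at 0.19 (SE 0.13, adjusted P = 0.655) and Kcnj8 at 0.10 (SE 0.20, adjusted P = 0.886). Kcnq5 was at −0.24 (SE 0.15, adjusted P = 0.626) and Kcnab1, a subunit that speeds inactivation of Kcna channels, at −0.93 (SE 0.47, adjusted P = 0.555) on 5 to 37 reads per library. The 37 reads were in VEH replicate 3, and without it the difference was −0.58. Kcnab1 had an unadjusted P under 0.05 in 6 of 16 alternatives, Kcnc4 and Kcng4 in 5 each, Kcnq5 in 3 and Kcna7 in 2.

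Over the 25 members averaging 1 CPM or more, 20 had a positive log2 difference and the median was 0.32. Over all 13170 genes at that level, 57.5% were positive and the median was 0.06. By family, the members at P under 0.05 were 2 of 28 voltage-gated (both higher), 2 of 8 calcium- and sodium-activated (both higher), 3 of 9 inward rectifiers (1 higher, 2 lower), 1 of 7 two-pore-domain (higher) and 0 of 13 auxiliary, beside 6.71% higher and 3.07% lower over all genes.

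Counts at this threshold moved with the choice of fit and of libraries. Limma-voom on the recovered reads gave 12 members higher in BAY against 7.59% of all genes, and 5 called with a 2-fold difference against 3.33%. Kcnc4 and Kcng4 were among the 12. Without VEH replicate 3, 11 members were higher against 8.15% and 0 lower against 1.65%, and Kcna2, Kcna7, Kcnk3 and Kcnn1 were among those that joined the 6 while Kcnj2 and Kcnj10 left the lower side. Kcnk3 had 2, 0, 43 and 0 reads in VEH and 2, 1, 3 and 1 in BAY, so without VEH replicate 3 it rested on very few reads. Counts of members higher in BAY ran from 3 without BAY replicate 3 (4.82% of all genes), through 10 without BAY replicate 2 (6.43%), to these 11. Counts of members lower ran from 0, without VEH replicate 3 or without BAY replicate 4 (2.2% of all genes in the latter), to 4 without VEH replicate 1 (2.65%). Kcnc1, Kcna5 and Kcnn2 had an unadjusted P under 0.05 in all 16 alternatives.

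**Figure D3:**
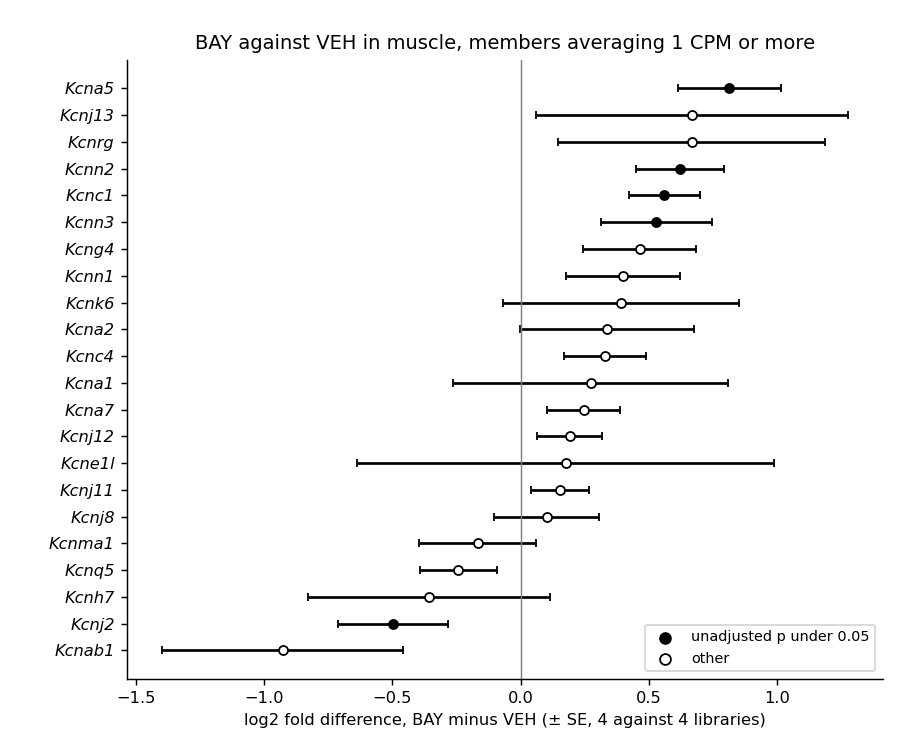
Log2 difference between BAY and VEH muscle for 22 of the 25 potassium channel genes averaging 1 CPM or more, with SE bars (4 against 4 libraries). Filled points have an unadjusted limma P under 0.05. Of the 22 points, 17 lie right of 0, from 0.10 for Kcnj8 to 0.81 for Kcna5.

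Genes that work with these channels were compared in the same fit. Of 8 channel partners, 6 were listed in muscle, and 1 was higher at P under 0.05 and 0 lower, beside 6.71% and 3.07% of all genes. That was Abcc8, a sulfonylurea receptor subunit of ATP-gated channels, at 4.77 to 6.69 CPM in VEH and 6.03 to 11.6 in BAY (log2 difference 0.49, SE 0.22, adjusted P = 0.498). Abcc9, the other sulfonylurea receptor, was far more abundant at 199 ± 28.7 CPM in VEH and 189 ± 8.77 in BAY (SD, n = 4 each; log2 difference −0.06). Of 16 genes for other parts of excitability, 15 were listed, with 1 higher (Clcn1, the chloride channel of the fibre membrane, log2 difference 0.36, SE 0.14, adjusted P = 0.448) and 1 lower (Atp1b3, a sodium pump subunit, −0.48, SE 0.22). The sodium channel Scn4a was at 361 ± 65.6 CPM in VEH and 389 ± 23.9 in BAY (SD, n = 4 each; log2 difference 0.13, SE 0.15). Abcc8, Clcn1 and Atp1b3 had P under 0.05 in 8, 9 and 10 of 16 alternatives, and none of the listed genes was called at a 2-fold difference.

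AhR binds DNA with its partner at sites with the core GCGTG. This core, searched on both strands in the 300 bases from 250 before to 50 after the start of each canonical transcript (GRCm39), was present for 38 of 94 members (40.4%) and for 37.0% of all 21770 protein-coding promoters. Among the 25 members over 1 CPM in muscle it was present for 9 (36.0%). Of the 8 members at P under 0.05 it was found only for Kcnj6, and of the 8 members over 30 CPM for 3, Kcnc4 and Kcnj12 among them. These are matches of letters in a short window.

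In bone the question was whether channel reads exceeded those of genes that are not transcribed there. Olfr genes, the receptors of the olfactory epithelium, served as silent genes, and 1136 protein-coding ones were listed in bone. They held 0.0476% of all CPM in VEH replicate 1 but 0.509% to 3.30% in the other 7 libraries, and in muscle 39 of them held 0.0018% to 0.0027%. In bone 386 of the 1136 (34.0%) had at least 3 reads in every library, as did 74 of the 94 channel genes (78.7%) and 14168 of all 20515 protein-coding genes (69.1%).

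Per kilobase, channel genes lay close to silent genes in most bone libraries. The median member was at 0.301, 6.04, 1.17 and 3.11 CPM per kb in VEH replicates 1 to 4, where the median silent gene was at 0.0509, 6.94, 1.26 and 5.41. In BAY replicates 1 to 4 the median member was at 3.501, 2.52, 1.94 and 5.64 and the median silent gene at 2.64, 2.34, 2.36 and 8.65. The median member was thus above the median silent gene in 3 libraries (VEH replicate 1 and BAY replicates 1 and 2) and below it in 5. Channel genes together took 0.0256% to 0.435% of all CPM, with the 2 highest shares in VEH replicate 2 and BAY replicate 4, as for the silent genes.

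A member was counted as above silent genes where it exceeded their 95th percentile in the same library. In VEH replicates 1 to 4 this held for 29, 6, 6 and 1 of 94 members, and in BAY replicates 1 to 4 for 16, 11, 5 and 2. VEH replicate 1, the library with most reads and the lowest share of reads on silent genes, thus had the most channel genes above them. In that library 46.1% of all protein-coding genes were above the percentile, and in the other 7 libraries 1.93% to 23.5%. Over all 8 libraries, 57 members were above in none, 18 in 1, 9 in 2, 6 in 3, 2 in 4, 1 in 6 and 1 in 8.

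**Figure D4:**
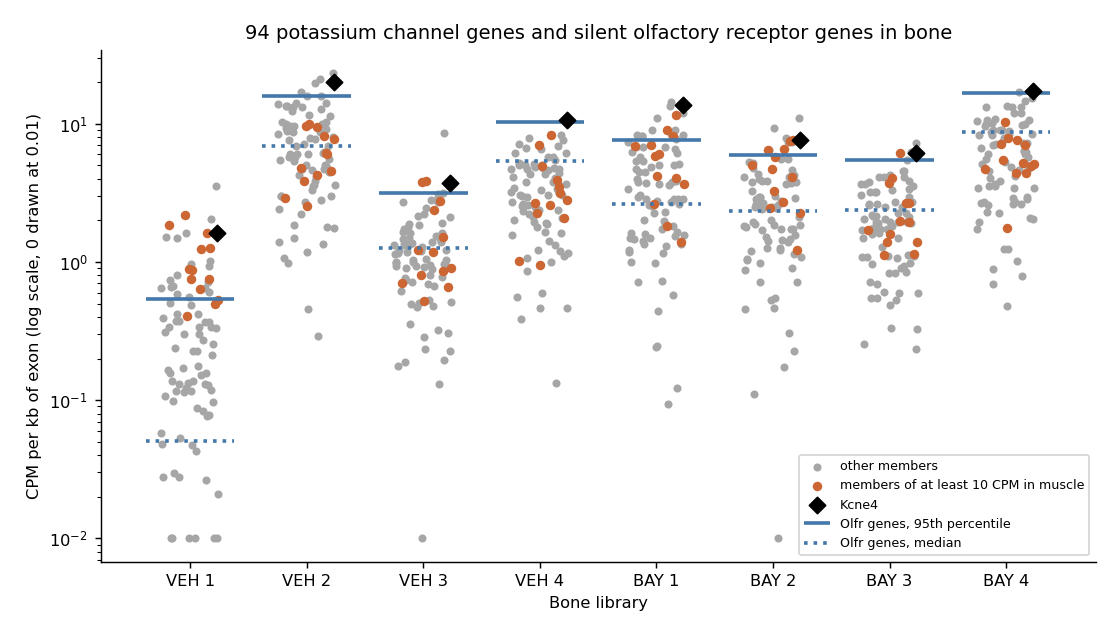
CPM per kb of exon of the 94 potassium channel genes in each bone library on a log axis, with values of 0 drawn at 0.01. Lines mark the 95th percentile (solid) and median (dotted) of 1136 Olfr genes. Only Kcne4 (diamond) is above the solid line in every library, and VEH replicate 1 has the lowest lines.

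Kcne4 (ENSMUSG00000047330, chr1:78794475-78797746, plus strand), a single-pass subunit that inhibits several Kcna and Kcnq channels, was the member above in all 8. It was at 1.62, 20.1, 3.73 and 10.7 CPM per kb in VEH replicates 1 to 4, against a percentile of 0.538, 15.9, 3.15 and 10.3. In BAY replicates 1 to 4 it was at 13.6, 7.63, 6.13 and 17.4, against 7.64, 5.93, 5.44 and 16.8. As a ratio to the percentile, the margin was widest in VEH replicate 1 and narrow in VEH replicate 4 and BAY replicate 4, on 28 to 81 reads per library. Of all 20515 protein-coding genes 82 (0.400%) were above in all 8 libraries, and of the silent genes 0. Against the 99th percentile Kcne4 was no longer above in every library and 0 members were. With vomeronasal and taste receptor genes (382) in place of Olfr genes it was again the 1 member. Without division by length 7 other members were above (among them Kcna2, Kcnk9, Kcnma1, Kcnn3 and Kcnq3) and Kcne4 was not. In muscle Kcne4 was at 0.840 CPM on 3 to 10 reads.

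Kcna3, a channel best known from lymphocytes, was above in 6 bone libraries. It was at 3.55, 23.2, 3.54 and 6.12 CPM per kb in VEH and at 11.99, 11.1, 7.23 and 15.3 in BAY, and it missed the percentile in VEH replicate 4 and BAY replicate 4. It was 1 of the 29 members absent from the muscle table, of which 21 were above silent genes in no bone library. Kcnf1 and Kcnj2 were above in 4 libraries each.

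Members rich in muscle were looked at apart, since muscle fibre markers reached 24924 CPM in bone. Of the 13 members averaging 10 CPM or more in muscle, 10 were above the percentile in VEH replicate 1, 3 in BAY replicate 1, 4 in BAY replicate 2, 2 in VEH replicate 3, 1 in BAY replicate 3 and 0 in the remaining libraries. Of the other 81 members, 19, 6, 4 and 1 were above it in VEH replicates 1 to 4, and 13, 7, 4 and 2 in BAY replicates 1 to 4. The median level of the 13 over that of the other 81 was 4.12 in VEH replicate 1, 2.05 in BAY replicate 1 and 1.92 in BAY replicate 2, and 0.855 to 1.03 in the other 5 libraries. Muscle fibre markers were at 4536, 22175 and 24924 CPM in those 3 libraries and at 29.1 to 859 CPM in the other 5. Kcnj11 followed the same division, at 1.25 CPM per kb in VEH replicate 1 against a silent percentile of 0.538, at 11.5 and 7.65 in BAY replicates 1 and 2 against 7.64 and 5.93, and below the percentile in the other 5 libraries. The part of muscle left on the shaft in these values was not tested.

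**Figure D5:**
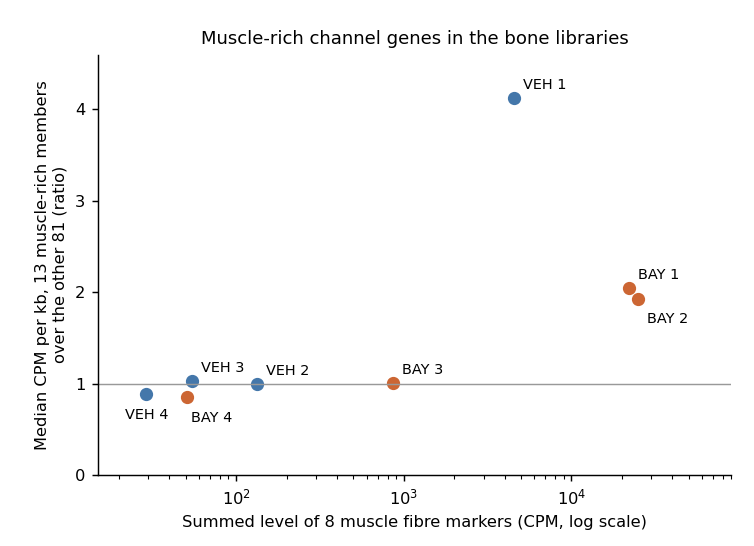
For each bone library, the median CPM per kb of the 13 channel genes with at least 10 CPM in muscle divided by that of the other 81, against the summed CPM of 8 muscle fibre markers (log axis). The 3 libraries with the most muscle marker CPM have ratios of 4.12, 2.05 and 1.92, and the other 5 lie between 0.855 and 1.03.

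In the fit of the deposited log2 values, no channel gene passed the threshold between BAY and VEH bone. With a 2-fold difference at P under 0.05, 0 of 94 members were called against 0.64% of all 38933 genes. At P under 0.05 alone, 0 were higher against 0.545% and 0 lower against 0.095%. The smallest unadjusted P was 0.071, for Kcnc4, and the smallest adjusted P was 0.887. Log2 differences were positive for 90 of 94 members, with a median of 1.00, and for 80.9% of all genes, with a median of 0.84. Centring each library on its median took these medians to 0.15 and −0.01, a shift of the whole table, and 57 of 94 members and 49.5% of all genes were then positive. Kcne4 was at 9.03 ± 8.33 CPM per kb in VEH and 11.2 ± 5.25 in BAY (SD, n = 4 each; limma adjusted P = 0.887).

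These counts also depended on single libraries. Limma-voom on recovered reads called 15 members, all higher in BAY, against 3.68% of all genes. The paper names limma-voom as its method, and the 1433 genes called by this fit equal the number it reports for bone. Without VEH replicate 2, which had 1086220 reads and the second highest silent level, 13 were called against 2.87%, among them Kcna1, Kcnf1, Kcnj14 and Kcnt1. Without VEH replicate 1 the member median was 0.12 and that of all genes −0.09, with 1 member called against 0.673% of all genes, and without BAY replicate 3 also 1 against 0.655%. None of the 15 was above silent genes in every library. Channel partners (8 of 8 listed) and other excitability genes (16 of 16) had 0 members at P under 0.05 in bone.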

How the data were processed

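Gene expression was measured by RNA sequencing in 16 libraries. Per the study's methods and the labels, reads were aligned with STAR 2.7.8a to mm39 and quantified over Ensembl release 104 genes with the Partek E/M algorithm. The authors deposited log2 values of CPM plus an offset of 0.0001 (bone) or 0.0004 (muscle). Whether counting used strand is not given in the sources used here. Column names identified the libraries, and that of VEH muscle replicate 3 is marked as a replacement.

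Log2 and offset were undone to give CPM. Reads were recovered from the steps between low values (81.4% to 88.5% of values of up to 50 reads were whole within 0.02). A floor of 3 reads covers counting error only. Exon lengths came from GENCODE M39 on GRCm39, the build of the files, whose models differ from release 104. BAY was compared with VEH within each tissue by limma 3.58.1 in R 4.3.3 (lmFit, eBayes with trend, two-sided, Benjamini-Hochberg over all genes) on the deposited log2 values. Calls required an unadjusted P under 0.05, with or without a 2-fold difference. The tables were normalized separately, so tissues were not tested against each other. Replicate numbers did not pair the libraries (correlations of deviations −0.109 to 0.188). Members given in full were those over 1 CPM in muscle, called, above silent genes in all 8 bone libraries, or among the 5 smallest P; Kcna3, Kcnf1, Kcnt1, Kcnk3 and Kcnj14 were chosen after their values were seen. The members and lists were chosen with earlier results of these data known. Some members and sequences are not reported here. Fits were tested on simulated data. Alternatives were other offsets, filters, scalings, limma-voom on recovered reads (limma-voom being the method the paper names), a replicate block and leaving out each library.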

Additional observations from a re-analysis of the deposited data

Results flagged for a closer look

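Within groups of 4 muscle libraries, 4 of 60 tested groups held a library far from the other 3 for a named channel gene, where chance gives about 5%. Kcnn3 was at 3.84 CPM in VEH replicate 1 against 6.32 to 6.69 in the other VEH libraries. Kcnj10 was at 0.558 CPM in VEH replicate 2 against 0.108 to 0.119, and at 0.258 CPM in BAY replicate 3 against 0 in the other BAY libraries, which is 4 and 2 reads. Kcnj13, an inward rectifier of transporting epithelia, was at 2.03 CPM in VEH replicate 4 against 0.432 to 0.697. Kcnk3, chosen after its values were seen, is not among these 4. It was at 4.64 CPM in VEH replicate 3 against 0 to 0.233 in the other VEH libraries.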

How the results depend on the processing

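The count of 3 muscle members called at a 2-fold difference was 0 with an offset of 1 CPM (0.247% of all genes), 0 among genes averaging 1 CPM or more (1.47%) and 5 by limma-voom on recovered reads (3.33%), and 1 to 3 when each library was left out (1 without VEH replicate 4, BAY replicate 3 or BAY replicate 4). The count higher in BAY (6) was 12 by limma-voom (7.59% of all genes) and 3 to 11 with libraries left out. The count lower (2) was 1 with the 1 CPM filter (3.52% of all genes), 1 without the variance trend (2.35%), 4 with median centring (5.91%), 4 with quantile normalization (6.14%) and 0 to 4 with libraries left out. In bone, 0 members called became 15 by limma-voom (15 higher; 3.68% of all genes) and 0 to 13 with libraries left out, and the 1 member above silent genes became 0 at the 99th percentile and 7 without division by length. Leaving out libraries took Kcnma1 from −0.32 to 0.11 and Kcnj8 from −0.040 to 0.19 on the log2 scale; none of these had passed the threshold. Over 19 named genes and their alternatives, 240 of 303 values kept their direction and side of the threshold, 37 lost the threshold, 23 gained it and 3 changed sign. With the replicate number as a block, which does not pair these libraries, 2 muscle members (2.33% of all genes) and 0 bone members (0.783%) were called, 5 muscle members were higher (5.36%) and 2 lower (3.1%), and Kcnk5, Abcc8 and Clcn1 missed the threshold. Apart from the alternatives named, the cause of these changes was not tested. In bone 1 read was worth up to 1.07 CPM, the smallest step in level that the shallowest library could show.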
